A study of Mus musculus with 12 samples.

Results

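The genes examined were 35 interferon response genes, a list of transcription factors, RNA sensors and antiviral effectors picked by gene symbol from the 52550 genes of a mouse RNA-seq count table. All 35 were found in the table and all 35 passed the filter on low counts, which left 17700 genes for testing. Wild-type primary cells taken from mouse intestinal muscle were kept for 28 days before RNA was taken, and strips of the native muscle were sequenced as a positive control, with 3 libraries in each of 4 groups. In the M scaffold group the cells grew on an electrospun gelatin scaffold in M medium, a serum-free differentiation medium with N2, B27 (minus vitamin A), N-acetylcysteine, 100 ng/ml of Noggin, which blocks BMP, 1 µg/ml of R-spondin1, which strengthens Wnt signalling, and 10 µM of the ROCK inhibitor Y27632. The M plate group had the same medium on a well plate. The P plate group grew on a well plate in P medium, a proliferation medium of DMEM with 10% FBS. The strips came from the same kind of tissue without culture, although they are also labelled with day 28 and, as source, with the isolated primary cells. All 4 groups carry the genotype label WT, and age and sex remain not given in the sources used here.

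Interferons are secreted proteins that cells release on sensing viral or misplaced nucleic acid. Type I interferons bind a receptor made of Ifnar1 and Ifnar2 and act through a complex that holds Stat2 and Irf9 and binds the interferon-stimulated response element (ISRE), while type II interferon acts at gamma-activated sites (GAS). Resting tissue cells and macrophages hold a low, standing level of many of these genes.

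The control regions of the members were read from RefSeq promoters (build GRCm38.p6), and a stretch around the ISRE letters is printed for the 6 members that passed the tests most often among those with a match. The ISRE was searched as GAAA, any 2 bases and GAAA, on either strand, so a match on the other strand reads TTTC, any 2 bases and TTTC. The GAS was searched as TTC, any 3 bases and GAA. Both were searched in the 250 bases before the start. Of the 28 members with a promoter in the table, 13 (46.4%) held at least 1 ISRE match, against 3.46% of 27025 genes, and 6 (21.4%) held a GAS match, against 8.13% of genes. In 1 member an ISRE and a GAS match overlapped. Oas2, Usp18, Mx1, Mx2, Ifi204, Rtp4 and Parp14 had no promoter in that table. Capitals mark the ISRE letters, overlapping matches run together, each sequence reads 5′ to 3′ along the strand of the gene, and the stretch covers bases 160 to 50 before the start, or 250 to 140 in Stat2.
Ifi205, chr1:174031805-174031915, minus strand: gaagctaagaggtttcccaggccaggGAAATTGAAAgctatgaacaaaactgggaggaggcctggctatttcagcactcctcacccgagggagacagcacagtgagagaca
Bst2, chr8:71537522-71537632, minus strand: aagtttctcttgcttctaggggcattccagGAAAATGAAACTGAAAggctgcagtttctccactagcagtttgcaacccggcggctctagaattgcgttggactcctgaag
Isg15, chr4:156200868-156200978, minus strand: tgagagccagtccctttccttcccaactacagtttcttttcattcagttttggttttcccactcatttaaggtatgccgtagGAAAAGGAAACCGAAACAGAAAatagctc
Ifit3, chr19:34583369-34583479, plus strand: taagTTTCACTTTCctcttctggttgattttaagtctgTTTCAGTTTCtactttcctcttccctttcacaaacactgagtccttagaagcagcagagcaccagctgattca
Stat2, chr10:128270248-128270358, plus strand: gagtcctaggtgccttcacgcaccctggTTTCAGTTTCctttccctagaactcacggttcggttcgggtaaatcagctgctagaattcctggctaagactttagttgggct
Gbp2, chr3:142620503-142620613, plus strand: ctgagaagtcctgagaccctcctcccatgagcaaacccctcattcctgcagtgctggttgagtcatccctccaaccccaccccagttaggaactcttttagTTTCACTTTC
Isg15 held 3 overlapping matches, Bst2 held 2 overlapping ones, Ifit3 held 2 separate ones, and Ifi205, Stat2 and Gbp2 held 1 each. Such matches describe the letters only. Only members that passed a test were printed. The printed matches lay in genes that were higher in culture groups than in strips and also in Gbp2, which was lower there. Of the other members with a match, Ddx60, Gbp3, Gbp7, Ifit1, Oas1a, Oas3 and Rsad2 passed in no comparison with strips. Ifih1, Ddx58, Irf9, Ifi44, Psmb8 and Tap1, which were higher in each culture group, held no match.

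Gene counts per library ranged from 21396485 to 116643512, so that 3 counts, the limit a count of 0 allows, lay between 0.0257 and 0.140 CPM (counts scaled to library size). The labelled tissue was checked with 8 smooth muscle markers, whose summed level was 3476 to 10704 CPM in M scaffold, 2919 to 5233 CPM in M plate, 5265 to 10992 CPM in P plate and 34061 to 35517 CPM in strips. Macrophage markers were present in every culture. The sum of 12 of them was 1878 to 4221 CPM in M scaffold, 4166 to 4901 CPM in M plate, 2348 to 22051 CPM in P plate and 165 to 235 CPM in strips. In P plate, replicate 1 stood apart with 22051 CPM, against 4201 and 2348 CPM in replicates 2 and 3 of that group. The T cell markers Cd3e and Cd3d were at no more than 0.0417 CPM in any library, and Siglech of plasmacytoid dendritic cells at no more than 0.430 CPM. Over the whole lists, the sum of 8 lymphocyte markers was 11.3 to 16.2 CPM in M scaffold, 36.3 to 79.8 CPM in M plate, 0.670 to 11.2 CPM in P plate and 1.29 to 2.05 CPM in strips, and 1 of the 2 that were tested was called higher in each culture group than in strips and 1 lower. The sum of 3 plasmacytoid dendritic cell markers was 18.9 to 42.2 CPM over the culture libraries and 5.55 to 8.90 CPM in strips, and the 1 that was tested was called higher in each culture group. The part of these cells in the members' levels was not tested. In such bulk libraries fewer cells of a type and less RNA per cell cannot be told apart. CPM values are scaled by TMM factors, and in every comparison a gene was called at an adjusted p under 0.05 in edgeR's quasi-likelihood F test with Benjamini-Hochberg adjustment over all 17700 genes.

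The members with the highest levels per length were Bst2 and Isg15 in all culture groups. Bst2 (ENSMUSG00000046718, tetherin, a membrane protein that holds budding virus on the cell) averaged 110.2 CPM per kilobase of exon in M scaffold, 137 in M plate, 183 in P plate and 14.9 in strips. Isg15 (ENSMUSG00000035692, a ubiquitin-like protein that is linked to other proteins) followed, at 27.7 CPM per kilobase in M scaffold, 30.6 in M plate and 41.4 in P plate. In strips the order was different: the guanylate-binding protein Gbp2 (ENSMUSG00000028270) had the highest level, 36.0 CPM per kilobase, then Bst2, then Ifi35 at 12.05. At the low end Mx1, an antiviral GTPase, stayed between 0.0454 and 0.380 CPM per kilobase in every group mean.

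**Figure D1:**
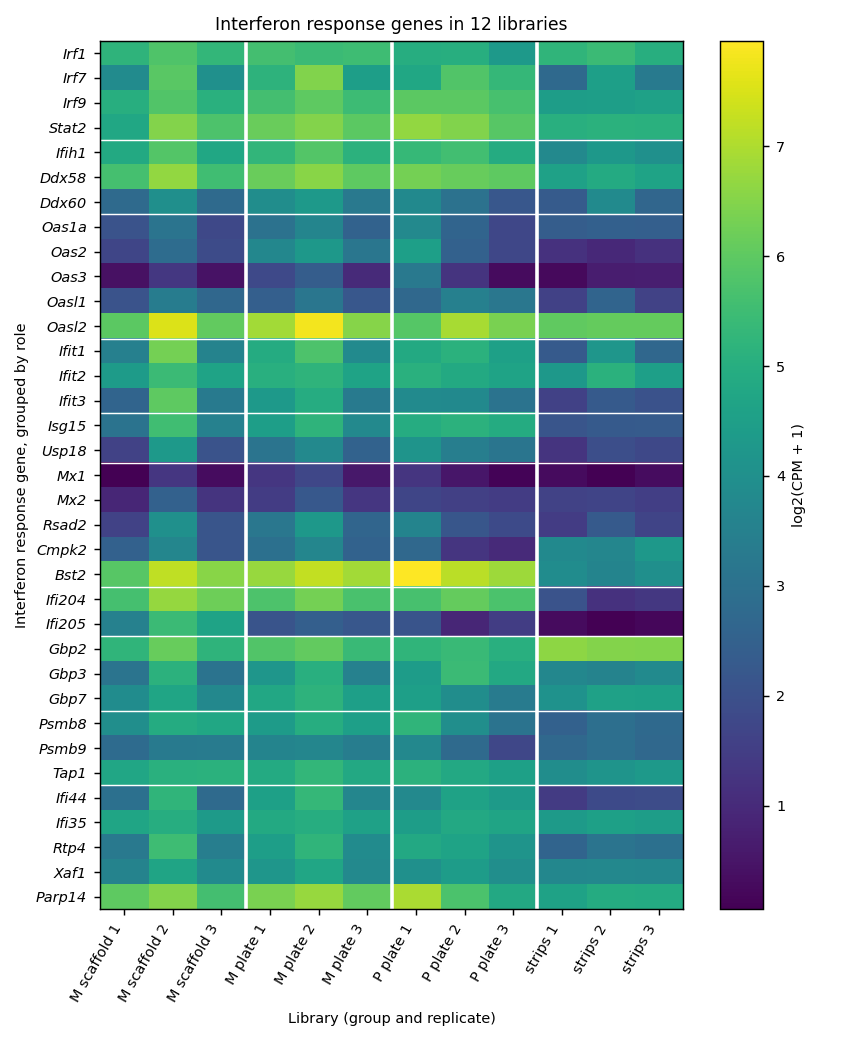
Levels of the 35 interferon response genes in each of the 12 libraries, as log2(CPM + 1) on a colour scale, with genes in rows by role and libraries in columns by group. Replicate 2 of M scaffold and replicate 2 of M plate are the bright columns of their groups, and Gbp2 is brightest in the strips.

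Within each group most members were highest in the same library. In M scaffold, replicate 2 had the highest level of its group in 33 of 35 members, all but Psmb9 and Tap1, whereas 28.0% of all tested genes were highest in that library. In M plate, replicate 2 was highest in 34 of 35, all but Irf1, against 31.1% of all tested genes. The strips had this too, to a lesser degree: replicate 2 was highest in 22 of 35, against 30.0% of all tested genes. The sum of the 35 members was 648, 1638 and 771 CPM in M scaffold replicates 1 to 3, 1084, 1602 and 888 in M plate, 1263, 1127 and 819 in P plate, and 482, 577 and 515 CPM in strips. The lowest culture library, M scaffold replicate 1, was thus above the highest strip.

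The ratio of the highest to the lowest library of a group shows how unequal these libraries were. With 0.1 CPM added, its median over the members was 2.86 in M scaffold, 2.15 in M plate, 1.84 in P plate and 1.41 in strips, against 1.36, 1.22, 1.47 and 1.23 over all tested genes in the same order. Without the added 0.1 CPM, the ratio in M scaffold was 12.4 for Ifit3, 9.02 for Usp18 and 7.59 for Ifit1. For Mx1 it was 24.3, which rested on 2 counts in replicate 1. Ifit1 (ENSMUSG00000034459, which binds viral RNA that lacks a host cap) stood at 10.4, 78.8 and 11.1 CPM in M scaffold, 29.2, 52.7 and 13.4 in M plate, 28.1, 33.5 and 22.4 in P plate, and 3.92, 17.6 and 5.54 in strips. Replicate 2 was high in all 4 groups for this gene, and the M plate and M scaffold libraries overlapped with the strips. Its log2 differences from strips, 1.90 ± 0.86 in M scaffold, 1.83 ± 0.85 in M plate and 1.65 ± 0.85 in P plate (SE), did not pass (edgeR adjusted p = 0.0851, 0.0923 and 0.113). With the replicate number added to the fit as a block in all 12 libraries, all of these passed (edgeR adjusted p = 0.0251, 0.0112 and 0.00788). DESeq2 called Ifit1 in M scaffold and M plate (DESeq2 adjusted p = 0.0355 and 0.0444). Its calls thus depended on the model.

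The same libraries were high for other genes of the pathway. Of 105 further pathway genes that were tested, 84 were highest in replicate 2 within M scaffold and 87 were highest in replicate 2 within M plate. The chemokine Cxcl10, a ligand that draws T cells, stood at 8.57, 115 and 6.91 CPM in M scaffold, 11.9, 34.1 and 7.53 in M plate, 6.40, 14.3 and 8.13 in P plate, and 0.246, 0.125 and 0.267 in strips. Macrophage marker sums did not have the same order as the members: in M scaffold they were 2360, 1878 and 4221 CPM in replicates 1 to 3, lowest in replicate 2, and in M plate 4166, 4738 and 4901 CPM. Smooth muscle sums were lowest in replicate 2 of both groups, at 10704, 3476 and 8842 CPM in M scaffold and 5233, 2919 and 4745 CPM in M plate. Whether these differences in cell make-up bear on the members' levels was not tested.

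**Figure D2:**
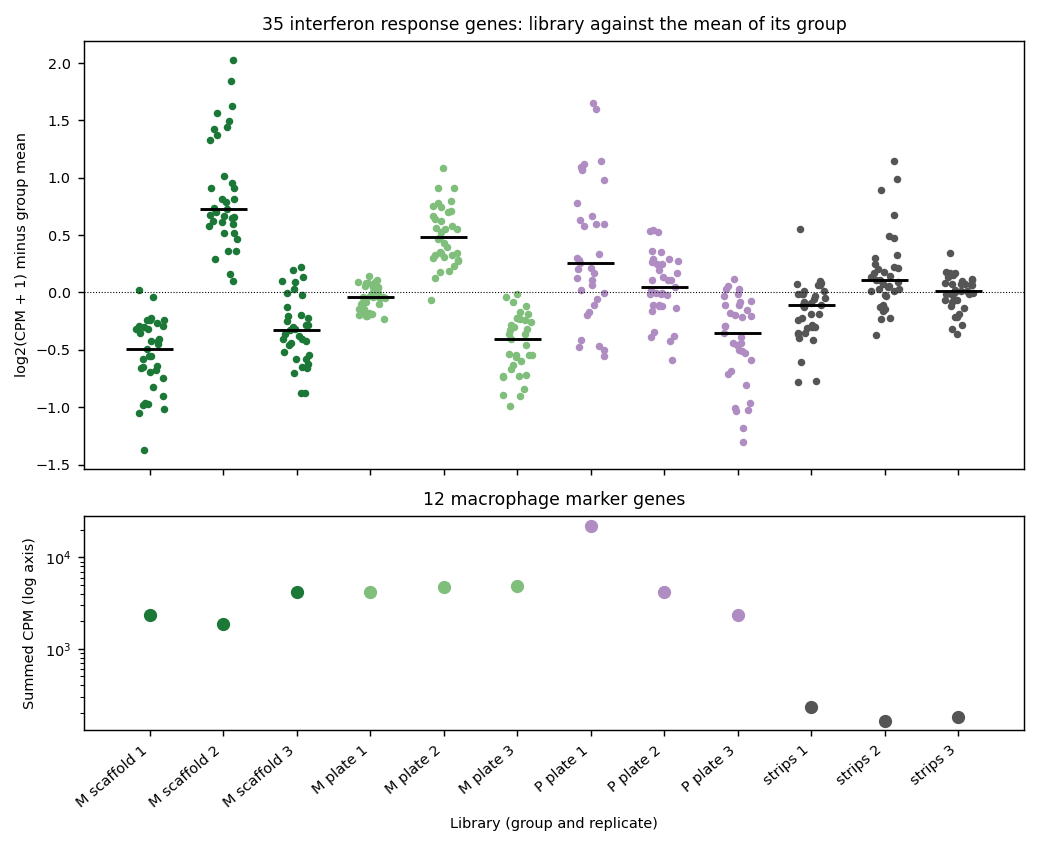
For each library, the upper panel shows the deviation of each of the 35 members from its group mean on the log2(CPM + 1) scale (points) with the median (line), and the lower panel shows the summed CPM of 12 macrophage markers on a log axis. Replicate 2 of M scaffold has a median deviation of 0.72 and replicate 2 of M plate one of 0.48, while the macrophage sum peaks at 22051 CPM in P plate replicate 1.

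The P plate libraries split the members differently. Replicate 1 was highest for 22 members (62.9%) and replicate 2 for 13 (37.1%), against 37.1% and 30.0% of all tested genes. Replicate 3 was lowest for 27 members. Oas2, an enzyme that makes the 2-5A signal for RNA decay, stood at 22.01, 4.67 and 2.36 CPM in P plate replicates 1 to 3, and the immunoproteasome subunit Psmb8 at 36.8, 14.7 and 7.33 CPM. Both followed the order of the macrophage sums, whose part in this was not tested. Irf7, the factor that amplifies type I interferon production, had another order, with 25.9, 55.7 and 39.2 CPM, as had Oasl1, with 5.61, 10.2 and 8.16 CPM.

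M scaffold was set against M plate for the effect of the scaffold in the same medium, and 1 of the 35 members was called. Ifi205 (ENSMUSG00000054203, chromosome 1, 174011998 to 174031810, minus strand), a member of the IFI200 family of interferon-inducible nuclear proteins, stood at 10.5, 42.6 and 24.0 CPM in M scaffold and 3.30, 4.42 and 3.63 CPM in M plate. Every M scaffold library was above every M plate library. It was higher in M scaffold by a log2 fold change of 2.77 ± 0.55 (SE, n = 3 libraries a group, edgeR adjusted p = 0.0324), a 6.80-fold difference. Across all tested genes 3.18% were called in this comparison, with 1.53% higher and 1.64% lower, so 1 of 35 members is near that background. The other member of the family on the list, Ifi204, had 48.7, 104 and 73.7 CPM in M scaffold and 52.7, 79.0 and 50.9 CPM in M plate, with groups that overlapped and a log2 difference of 0.31 ± 0.35 (edgeR adjusted p = 0.655).

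Of the 35 members, 5 had a difference above 0. The median was -0.21, against 0.01 over all tested genes, and 2 members had an unadjusted p under 0.05. That median rested on single libraries: it was 0.05 without M plate replicate 2, -0.95 without M scaffold replicate 2, -0.04 without M scaffold replicate 1 and -0.07 without M scaffold replicate 3. Same-numbered libraries of these groups moved together across genes, so the comparison was repeated with the replicate number as a block. With the block in all 12 libraries Ifi205 kept a log2 fold change of 2.75 and missed the threshold (edgeR adjusted p = 0.0606). With the block within the 6 libraries of these groups 5 members were called: Ifi205 was higher in M scaffold with 2.59, and Oas1a (-0.90), Oas2 (-1.82), Oas3 (-1.83) and Gbp7 (-0.73) were lower there. The same fit called 1718 of 16354 genes, so calls over all genes rose as well. Oas2 stood at 2.30, 6.18 and 2.64 CPM in M scaffold and 12.1, 18.2 and 7.97 CPM in M plate, without overlap. Without the block its log2 difference was -1.79 ± 0.72 (edgeR adjusted p = 0.187). The Ifi205 call was also lost without any single M plate library (edgeR adjusted p = 0.0966, 0.138 and 0.117 without replicates 1 to 3) and without M scaffold replicate 2 (0.0681) or 3 (0.0647), at log2 fold changes of 2.21 to 2.90. Reads of Ifi204 and Ifi205 may be shared with near copies in the IFI200 cluster, which makes their split uncertain.

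**Figure D3:**
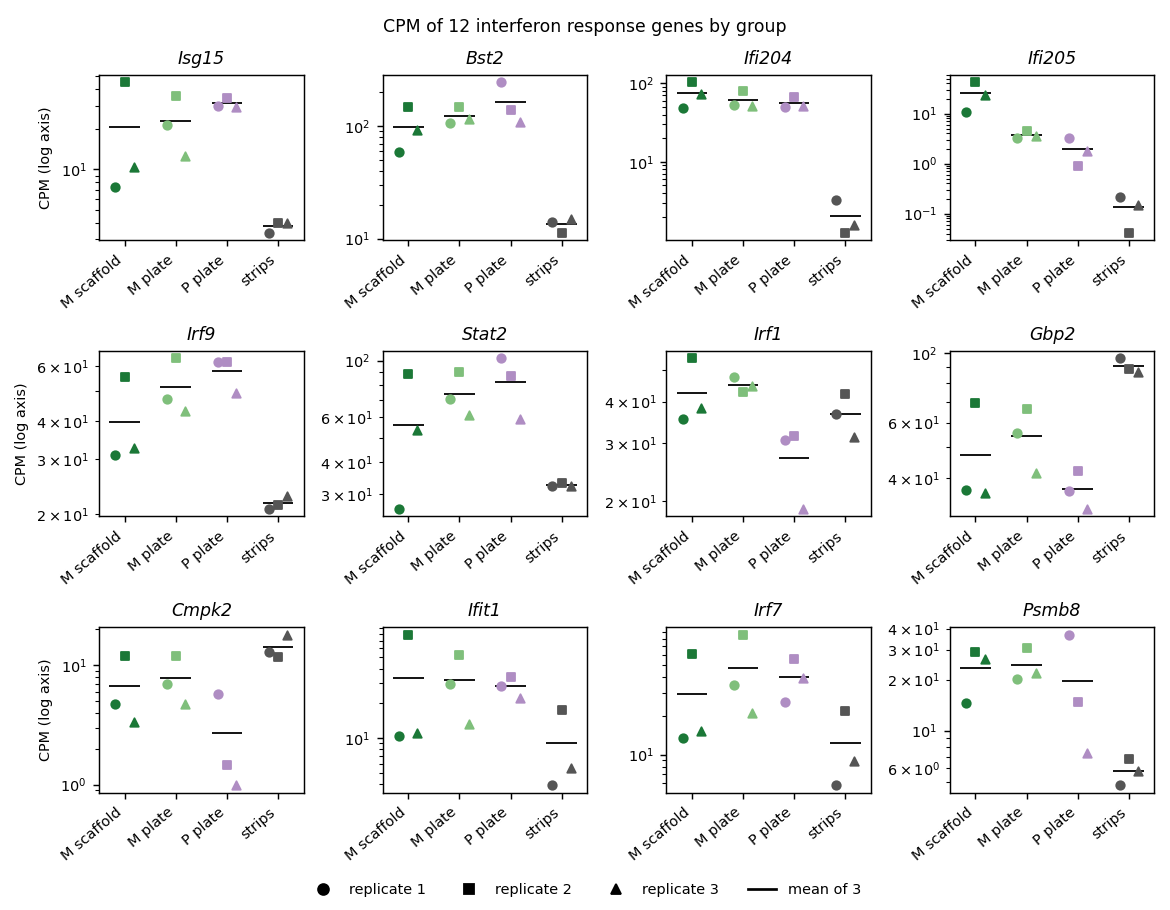
CPM on a log axis for 12 of the members, 1 panel a gene, with M scaffold, M plate, P plate and strips from left to right, a symbol for each replicate and a line at the mean of 3. Ifi205 is highest in M scaffold, Gbp2 is highest in strips, and replicate 2 (square) tops the M scaffold group in each of the 12 panels.

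M plate was set against P plate for the effect of the medium on a well plate, and again 1 member was called, higher in M plate. Irf1 (ENSMUSG00000018899), a transcription factor that acts early after interferon, stood at 47.4, 42.7 and 44.5 CPM in M plate, against 30.5, 31.5 and 19.0 CPM in P plate, with no overlap. It was higher in M plate by 0.73 ± 0.21 on the log2 scale (SE, edgeR adjusted p = 0.0310). The share called among all genes was 24.9%, with 14.3% higher and 10.6% lower, far above 1 of 35, and 4 members had an unadjusted p under 0.05. The median over the members was 0.21, against -0.004 over all tested genes, and it was -0.08 without M plate replicate 2 and 0.04 without P plate replicate 3. Levels of the other members overlapped between M plate and P plate except for Ifi205, which had 3.30, 4.42 and 3.63 CPM in M plate, against 3.28, 0.891 and 1.82 CPM in P plate and did not pass (edgeR adjusted p = 0.246). Markers of other cell types also differed here. Of 9 endothelial markers 8 were higher in M plate, with a median log2 fold change of 8.11 and sums of 3283 to 4235 CPM in M plate, against 26.0 to 38.1 CPM in P plate. All 5 enteric glia markers were higher in M plate as well. The part of these cells in the members' values was not tested.

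The calls in this comparison changed without P plate replicate 1, the library with the highest macrophage sum. Then 7 members were called, all higher in M plate: Irf1 with a log2 fold change of 0.83, the mitochondrial nucleotide kinase Cmpk2 with 2.69, Oas2 with 1.86, Psmb9 with 1.39, Gbp7 with 1.25, Psmb8 with 1.14 and Parp14 with 1.08. Calls over all genes stood at 5188 of 18152 without that library. The Irf1 call was lost without any single M plate library (edgeR adjusted p = 0.0954, 0.0681 and 0.0696 without replicates 1 to 3) and without P plate replicate 3, where its log2 fold change was 0.53 (edgeR adjusted p = 0.0868). Irf1 overlaps the gene Gm17334 on the other strand, and a strand setting for the counting was not given in the sources used here. Ambiguous reads were kept apart from the gene counts, so some Irf1 reads may be missing.

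Each culture group was then compared with the strips, which were not cultured, so the 3 comparisons share the strip libraries. In M scaffold 13 members were higher and 1 lower, against 24.5% of all tested genes higher and 27.6% lower (52.1% called). In M plate 16 were higher and 1 lower, against 26.5% and 28.4% of all genes (54.9% called). In P plate 16 were higher and 2 lower, against 30.5% and 32.7% (63.1% called). The members' share called in either direction was thus below that of all genes in each comparison (14, 17 and 18 of 35), while the share higher, 37.1%, 45.7% and 45.7%, was above it. The median log2 fold change over the members was 1.02 in M scaffold, 1.47 in M plate and 1.34 in P plate, against -0.02, -0.01 and -0.03 over all tested genes. Without M scaffold replicate 2 the median in M scaffold was 0.25. Markers of several cell types also differed from strips, in both directions. Of 12 macrophage markers 10 were higher in M scaffold than in strips, and 12 in M plate and in P plate. Fibroblast markers were higher in every culture group, 5 of 5 in each. Of 9 endothelial markers 7 were higher in M scaffold and 8 in M plate, whereas none was higher and 7 were lower in P plate. Of 8 smooth muscle markers 6 were lower in M scaffold, 8 in M plate and 6 in P plate. The part of these cells in the members' differences was not tested. Without replicate 2 of M scaffold and of M plate, 12 members were called in M scaffold and 16 in M plate, and 7370 and 7943 of 18160 genes. Without P plate replicate 1 and M scaffold replicate 3, 18 members were called in M scaffold, 24 in M plate and 20 in P plate, and 10417, 11584 and 11819 of 18028 genes, so calls over all genes rose too.

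Among the transcription factors, Irf9, a DNA-binding part of the complex with Stat2, stood at 31.1, 55.2 and 32.7 CPM in M scaffold, 47.1, 63.6 and 43.1 in M plate, 62.0, 61.9 and 49.3 in P plate, and 20.8, 21.4 and 22.9 in strips. All culture libraries were above all strips, and the log2 fold changes were 0.87 ± 0.22, 1.24 ± 0.23 and 1.41 ± 0.23 (SE) in M scaffold, M plate and P plate, all called. Stat2 stood at 26.3, 88.7 and 53.3 CPM in M scaffold, 70.7, 90.0 and 61.0 in M plate, 102, 87.0 and 59.3 in P plate, and 32.3, 33.3 and 32.3 in strips. It rose in M plate (1.18 ± 0.36) and P plate (1.34 ± 0.36). The M plate call was lost without M plate replicate 2 or any strip (edgeR adjusted p = 0.0501 to 0.0669). In M scaffold, where replicate 1 lay below the strips, it did not pass (0.78 ± 0.36, edgeR adjusted p = 0.0903). Irf7 stood at 13.6, 60.4 and 15.4 CPM in M scaffold, 35.1, 86.2 and 21.2 in M plate, 25.9, 55.7 and 39.2 in P plate, and 5.78, 21.9 and 8.94 in strips. Its call in M plate (1.97 ± 0.73, edgeR adjusted p = 0.0420) rested on groups that overlapped, and without M plate replicate 2 the log2 fold change was 1.20 (edgeR adjusted p = 0.200). It was also lost without M plate replicate 1, strip 1 or strip 3 (edgeR adjusted p = 0.0556, 0.138 and 0.128). Irf1 was called in none of the culture groups against strips, where it had 36.6, 42.1 and 31.3 CPM.

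The cytosolic RNA sensors Ifih1 (MDA5) and Ddx58 (RIG-I), which start interferon production, rose in each culture group. Ddx58 stood at 48.6, 101 and 45.4 CPM in M scaffold, 69.9, 93.2 and 62.8 in M plate, 78.4, 68.3 and 62.5 in P plate, and 23.1, 28.4 and 23.8 in strips. No strip reached the level of any culture library, and the log2 fold changes were 1.37 ± 0.28, 1.59 ± 0.29 and 1.48 ± 0.28. For Ifih1 they were 1.25 ± 0.32, 1.47 ± 0.32 and 1.31 ± 0.32, in the same order. The helicase Ddx60 was called in none of them, with 4.05, 13.3 and 5.32 CPM in the strips themselves.

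Both members of the ISG15 system rose in P plate, and Isg15 also rose in M plate and M scaffold. Isg15 stood at 7.34, 45.1 and 10.4 CPM in M scaffold, 21.4, 35.5 and 12.6 in M plate, 30.1, 34.4 and 29.6 in P plate, and 3.37, 3.96 and 3.97 in strips. The P plate libraries were close together and the M scaffold libraries far apart, yet each culture library exceeded each strip. The log2 fold changes were 2.47 ± 0.62 in M scaffold, 2.62 ± 0.63 in M plate and 3.06 ± 0.64 in P plate (edgeR adjusted p = 0.00733, 0.00499 and 0.00178). Usp18, the protease that removes Isg15 and dampens the receptor, had 2.06, 18.6 and 3.25 CPM in M scaffold, 7.59, 12.8 and 4.88 in M plate, 16.8, 9.87 and 7.81 in P plate, and 1.40, 2.92 and 2.45 in strips. It was called in P plate (2.35 ± 0.76), though not without P plate replicate 1, strip 1 or strip 3 (edgeR adjusted p = 0.0543 to 0.0744), and missed the threshold in M plate (1.90 ± 0.75, edgeR adjusted p = 0.0526) and M scaffold (1.82 ± 0.75, edgeR adjusted p = 0.0645).

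Of the effectors, Bst2 stood at 59.0, 147 and 92.6 CPM in M scaffold, 107, 148 and 116 in M plate, 248, 139 and 109.5 in P plate, and 14.1, 11.3 and 15.0 in strips. The lowest culture library was above the highest strip. Its log2 fold changes were 2.88 ± 0.37, 3.19 ± 0.38 and 3.62 ± 0.39 in M scaffold, M plate and P plate (edgeR adjusted p = 0.000192, 8.43e-05 and 2.31e-05), or 7.38-fold, 9.15-fold and 12.3-fold. Ifi204 (ENSMUSG00000073489) had 49.3, 67.1 and 51.4 CPM in P plate and 3.26, 1.25 and 1.55 CPM in strips. It rose by 5.22 ± 0.42 in M scaffold, 4.91 ± 0.42 in M plate and 4.79 ± 0.42 in P plate, log2 fold changes that correspond to 37.2-fold, 30.0-fold and 27.6-fold. Ifi205 was near the detection limit in strips, with 8, 1 and 13 counts, or 0.219, 0.0417 and 0.151 CPM. It was higher by 7.43 ± 0.73, 4.66 ± 0.69 and 3.75 ± 0.68 on the log2 scale in M scaffold, M plate and P plate.

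The IFIT and OAS families, which bind foreign RNA or signal for RNA decay, passed in part. Ifit3 had 5.07, 62.9 and 8.97 CPM in M scaffold, 19.1, 29.7 and 8.71 in M plate, 13.2, 13.0 and 7.33 in P plate, and 1.97, 3.92 and 3.12 in strips. No culture library overlapped with the strips. The differences were 3.10 ± 0.87 in M scaffold and 2.68 ± 0.85 in M plate, both called, and 1.90 ± 0.84 in P plate (edgeR adjusted p = 0.0683). Without M scaffold replicate 2 the first was 1.22 (edgeR adjusted p = 0.0737), and without strip 1 it was 2.85 (0.0523). The M plate call was lost without M plate replicate 2, strip 1 or strip 3 (edgeR adjusted p = 0.0634 to 0.0791). Oas2, which had 1.29, 0.959 and 1.28 CPM in strips, rose by 3.43 ± 0.78 in M plate and 3.03 ± 0.77 in P plate, and its difference of 1.64 ± 0.74 in M scaffold did not pass (edgeR adjusted p = 0.0871). Its P plate call was lost with the replicate block within the 6 compared libraries (edgeR adjusted p = 0.0591). Oasl1 was called in P plate (1.42 ± 0.50) and lost without P plate replicate 2 or 3 or strip 1 or 3 (edgeR adjusted p = 0.0612 to 0.105), and Oas1a, Oas3 and Oasl2 passed in no culture group.

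Antigen-processing members and further induced genes rose too, apart from Psmb9, Ifi35 and Xaf1. The peptide transporter subunit Tap1 stood at 25.7, 32.7 and 33.6 CPM in M scaffold, 28.8, 38.1 and 27.2 in M plate, 34.1, 27.3 and 22.2 in P plate, and 14.3, 16.6 and 18.7 in strips, and its log2 fold changes were 0.89 ± 0.19, 0.92 ± 0.19 and 0.75 ± 0.19. Psmb8 had 4.76, 6.76 and 5.75 CPM in strips, lower than any culture library, and rose by 2.02 ± 0.50, 2.08 ± 0.50 and 1.77 ± 0.50 in M scaffold, M plate and P plate. With the replicate block within the 6 compared libraries, the P plate calls of Tap1 and Psmb8 were lost (edgeR adjusted p = 0.0758 and 0.112). Ifi44 rose by 2.81 ± 0.71, 3.39 ± 0.73 and 3.00 ± 0.72, with 1.70, 2.54 and 2.70 CPM in strips. Rtp4 was called with 1.68 ± 0.60, 1.87 ± 0.61 and 1.81 ± 0.60, though without M scaffold replicate 2 its difference in M scaffold was 0.48 (edgeR adjusted p = 0.317). Its calls were also lost without any strip in M scaffold (0.0704 to 0.118), without M plate replicate 2, strip 1 or strip 3 in M plate (0.0624 to 0.0937), and without P plate replicate 1, strip 1 or strip 3 in P plate (0.0546 to 0.0799). The ADP-ribosyltransferase Parp14 was called with 1.29 ± 0.45, 1.63 ± 0.46 and 1.32 ± 0.45. In P plate its 124, 52.1 and 27.5 CPM overlapped with 23.6, 29.4 and 28.7 CPM in strips, and without P plate replicate 1 the difference was 0.51 (edgeR adjusted p = 0.182). Its calls in P plate and M scaffold were also lost without any strip (0.0576 to 0.109), and in M scaffold without replicate 1 or 2 (0.0592 and 0.121). The M plate call of Parp14 was lost without M plate replicate 2 and M scaffold replicate 2 together (edgeR adjusted p = 0.0504). Tap1 and its neighbour Psmb9 overlap on opposite strands, as do Irf7 with Phrf1 and Rtp4 with Masp1. Irf9 overlaps with Rnf31 on the same strand. Ambiguous reads were kept apart from the gene counts, so reads on both genes of a pair may be missing from these counts. Near copies of Ifit3 and Oas1a make their counts uncertain too.

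**Figure D4:**
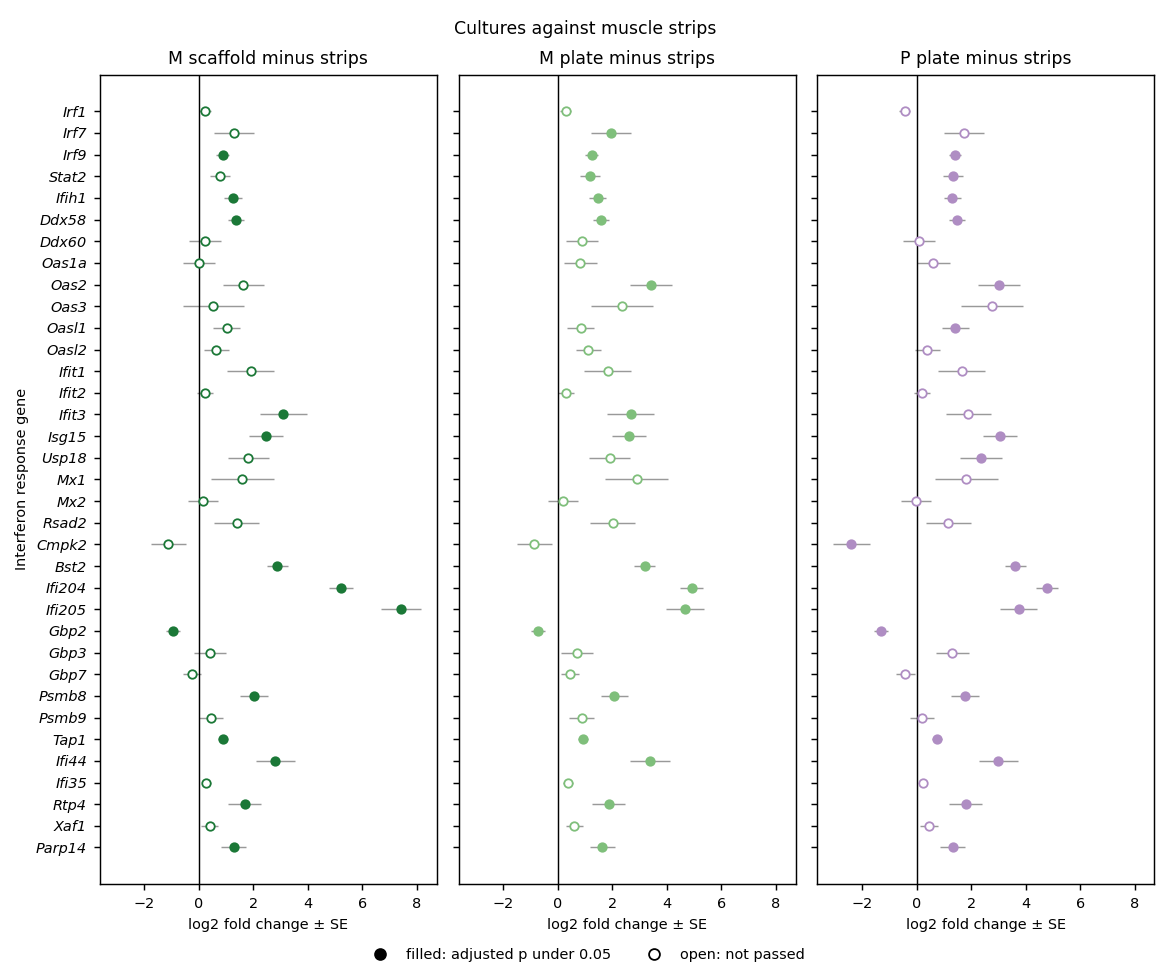
Log2 fold changes of the 35 members in M scaffold, M plate and P plate, each minus strips, with the SE as a bar, filled where the edgeR adjusted p was under 0.05 and open otherwise. Ifi204 and Ifi205 lie farthest to the right, Gbp2 lies left of 0 in each panel, and Cmpk2 lies farthest left in P plate.

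Gbp2, a GTPase that attacks the membranes of intracellular microbes, went the other way. It stood at 36.6, 69.2 and 35.7 CPM in M scaffold, 55.7, 66.3 and 41.3 in M plate, 36.4, 42.0 and 31.8 in P plate, and 96.2, 88.7 and 86.9 in strips. Each strip was above each culture library. The log2 fold changes were -0.94 ± 0.26 in M scaffold, -0.74 ± 0.25 in M plate and -1.30 ± 0.26 in P plate (edgeR adjusted p = 0.0107, 0.0309 and 0.00132). The M plate call was lost without M plate replicate 1 or 3 or any strip (edgeR adjusted p = 0.0525 to 0.115). Its relatives Gbp3 and Gbp7 passed in no culture group. Cmpk2 (ENSMUSG00000020638) had 5.69, 1.44 and 0.988 CPM in P plate and 12.9, 11.8 and 18.1 CPM in strips, and fell by 2.39 ± 0.68 on the log2 scale (edgeR adjusted p = 0.0108). In M scaffold its levels were 4.70, 11.9 and 3.37 CPM and in M plate 6.93, 11.98 and 4.78 CPM, and it passed in neither. Its neighbour Rsad2, viperin, which is transcribed away from it in the mouse genome, passed in no comparison, with 2.06, 15.2 and 3.44 CPM in M scaffold, 8.11, 18.4 and 5.17 in M plate, 11.4, 3.47 and 2.55 in P plate, and 1.75, 3.96 and 2.20 in strips.

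In the fit with the group as its only term, 15 members were called in none of the comparisons with strips. These were Ddx60, Gbp3, Gbp7, Ifi35, Ifit1, Ifit2, Irf1, Mx1, Mx2, Oas1a, Oas3, Oasl2, Psmb9, Rsad2 and Xaf1. Their log2 differences from strips ran from -0.44 for Irf1 in P plate to 2.89 ± 1.15 for Mx1 in M plate (edgeR adjusted p = 0.0529). Mx1 was low throughout, at 0.0614, 1.49 and 0.253 CPM in M scaffold, 1.49, 2.33 and 0.488 in M plate, 1.45, 0.461 and 0.0957 in P plate, and 0.219, 0.0417 and 0.255 in strips. Oasl2 was abundant in all groups, with 61.4 to 184 CPM in M scaffold, 91.0 to 224 in M plate, 58.1 to 121 in P plate and 64.7 to 67.0 in strips, and its difference in M plate was 1.11 ± 0.46 (edgeR adjusted p = 0.0621). Ifit2, Ifi35 and Xaf1 differed from strips by 0.19 to 0.60 on the log2 scale. A p above the threshold does not show that these levels were alike.

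The wider pathway was described with 130 further genes, of which 105 were tested. None of the 20 interferon ligands on that list passed the low-count filter. Ifnb1, the type I interferon that most cell types can make, had 2 counts in M scaffold replicate 3, 4 counts in P plate replicate 1 and 0 elsewhere, and Ifng, the type II interferon of lymphocytes, had 0 counts in every library. Ifna2, Ifna7 and Ifnk had 1 count each in 1 library, and the other ligands had 0 counts throughout. Of 10 receptor and signalling genes, 9 were higher in M scaffold than in strips, 8 in M plate and 8 in P plate, and none was lower. The shares of all tested genes that were higher, 24.5% in M scaffold, 26.5% in M plate and 30.5% in P plate, are the background for this count and those of the gene groups that follow. Ifnar2 rose by 2.87 ± 0.20, 2.85 ± 0.20 and 2.23 ± 0.19 in these groups, with 146 to 236 CPM in M scaffold, 158 to 211 in M plate, 101 to 132 in P plate and 23.9 to 25.6 in strips. Ifnar1 rose by 1.09, 1.00 and 1.04 in the same order.

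The sensing genes (19 tested) had 13 members higher in M scaffold than in strips and 17 each in M plate and P plate, with none lower. Among them the endosomal RNA receptor Tlr7, which is typical of macrophages and dendritic cells, rose by 3.19 ± 0.76, 4.62 ± 0.80 and 5.65 ± 0.83. Of 6 negative regulators tested, 4, 5 and 5 were higher, with the signalling inhibitor Socs3 at 2.82 ± 0.28, 2.55 ± 0.28 and 2.07 ± 0.27. Of 39 other effectors, 23 were higher and none lower in M scaffold, 29 and 1 in M plate, and 24 and 2 in P plate. Cxcl10 had log2 fold changes of 7.55 ± 1.34, 6.27 ± 1.29 and 5.38 ± 1.26. Of 14 interferon-inducible GTPases tested, 5, 6 and 4 were higher, and 1 was lower in P plate. Antigen presentation genes (17 tested) had 5 higher and 2 lower in M scaffold, 9 and 1 in M plate, and 6 and 5 in P plate. The class II genes Cd74 (-3.08 ± 0.62) and H2-Aa (-4.89 ± 0.86) were among those lower in P plate.

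Between the culture groups fewer of these 105 genes passed than against strips, as was the case for all genes. M plate against P plate had 10 higher, 6 of them antigen presentation genes, and 1 lower, against 24.9% of all tested genes called in either direction. The 1 lower was the lipopolysaccharide receptor Tlr4 (-0.82 ± 0.21), a call lost without M plate replicate 1 or 3 (edgeR adjusted p = 0.0748 and 0.0629) and with the block within the 6 libraries (0.0997). Among the higher genes were H2-Aa at 5.26 ± 0.87, Cd74 at 4.88 ± 0.67 and the GTPase Iigp1 at 1.94 ± 0.56 on the log2 scale. Iigp1 stood at 27.6, 45.7 and 20.6 CPM in M plate, against 7.25, 9.84 and 7.43 CPM in P plate, without overlap. Its call was lost without M plate replicate 1 or 2 (edgeR adjusted p = 0.0612 and 0.105) and without P plate replicate 1 or 3 (0.0606 and 0.0896). Cd74 had 38.8, 77.9 and 39.1 CPM in M plate, against 1.86, 2.58 and 0.829 CPM in P plate. M scaffold against M plate had 1 of the 105 higher and none lower, against 3.18% of all tested genes called. It was Ifitm1, a membrane protein that blocks virus entry, at 22.3, 64.0 and 53.5 CPM in M scaffold and 13.1, 17.2 and 14.2 CPM in M plate, a log2 fold change of 1.65 ± 0.36 (edgeR adjusted p = 0.0413). The Ifitm1 call was lost with the replicate block in all 12 libraries (edgeR adjusted p = 0.0672), with the 6 libraries alone (0.0515), without any single M plate library (0.113 to 0.139) and without M scaffold replicate 2 or 3 (0.0815 and 0.0984).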

How the data were processed

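The 12 mouse RNA-seq libraries fall into 4 groups of 3, and a TruSeq v2 kit was used per the labels' protocols. The authors deposited raw counts for Ensembl genes, in 1 column for each sample. The submitters' processing notes name STAR 2.6.0 and the builds GRCm38 and mm10. A counting program, annotation or strand setting was not given in the sources used here. Each sample had 2 technical replicates per the series text, and how they were joined is likewise not given. The 5 summary entries of the table entered neither library sizes nor tests. Reads outside annotated features were 4.20% to 7.87%, and ambiguous reads 3.12% to 3.87%, of the sum of these 2 entries and the gene counts. Symbols and coordinates came from GENCODE M21, which matched 52403 of 52550 genes, and promoters from RefSeq.

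Counts were filtered with filterByExpr and scaled by TMM (factors 0.893 to 1.15) in edgeR 4.0.16 (R 4.3.3). One quasi-likelihood model with the group as its only term was fitted to all 12 libraries, with 8 residual degrees of freedom, and each of 5 comparisons was tested with the two-sided F test. The SE came from the F statistic and so takes in the spread between libraries. The detection limits cover counting error only. The procedure was run on simulated data with counts drawn independently for each gene and library. Such data hold no pairing and no shift shared by many genes of a library, so that run did not cover either. DESeq2 1.42.0, other size factors, no count filter, left-out libraries and replicate blocks were alternatives. In M scaffold and M plate, libraries with the same number deviated together across genes (correlations of 0.290, 0.196 and 0.304), so the numbers were taken to pair these groups. The other pairs of groups did not meet this rule. The series text calls the replicates biologically independent, with no animal numbers. All 35 members could be named. Single-library values are given for most of those called that averaged at least 5 CPM in some group, for some in part of the groups. Ifih1 and Rtp4 were called and are given without them, and Ifit1, which was not called, is given with them. From the other pathway lists the largest called changes were named, up to 3 a list and comparison. Mx1, Oasl2, Rsad2 and Ddx60 were given values after these were seen. The members and lists were chosen with earlier results of these data known. Some further genes of the lists are not reported here.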

Additional observations from a re-analysis of the deposited data

How the results depend on the processing

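The median over the members turned sign in both comparisons between cultures without M plate replicate 2, from a value of 0.21 with all libraries to -0.08 in M plate against P plate, and from -0.21 to 0.05 in M scaffold against M plate. The calls between cultures changed when a single library was left out, which also left fewer libraries to test. Leaving out each library in turn gave 0 to 7 members called in M plate against P plate (1 with all libraries), 0 to 1 in M scaffold against M plate (1), 11 to 16 in M scaffold against strips (14), 12 to 18 in M plate against strips (17) and 14 to 19 in P plate against strips (18). Over all genes the ranges were 2630 to 5188 (4400) and 18 to 348 (562) in the comparisons between cultures. The count of 18 genes was without M plate replicate 2. Against strips the ranges over all genes were 7706 to 8659 (9228) in M scaffold, 8278 to 8706 (9712) in M plate and 10063 to 11320 (11175) in P plate.

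Of the members called, 14 of 18 in P plate, 12 of 17 in M plate and 11 of 14 in M scaffold against strips passed without each single library, and 11 in each passed under every alternative run. Rtp4 was lost in all of these comparisons without some library. Parp14 and Ifit3 in M scaffold, Irf7, Stat2, Ifit3 and Gbp2 in M plate, and Oasl1, Usp18 and Parp14 in P plate were also lost. Oas2, Psmb8 and Tap1 in P plate were lost with the replicate block within the 6 compared libraries. Parp14 in M plate was lost without M plate replicate 2 and M scaffold replicate 2 together.

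For M plate against P plate, the 6 compared libraries alone gave 0 members and 2846 genes, the replicate block within them 0 and 1300, leaving out M plate replicate 2 and M scaffold replicate 2 gave 0 and 2562, and leaving out P plate replicate 1 and M scaffold replicate 3 gave 7 members. For M scaffold against M plate, DESeq2 gave 2019 genes, the 6 libraries alone 1068, the replicate block within them 5 members and 1718 genes, the block in all 12 libraries 0 members and 391 genes, leaving out P plate replicate 1 and M scaffold replicate 3 gave 1355 genes, and leaving out both replicates 2 gave 0 members and 9 genes. For M plate against strips the 6 libraries alone gave 28 members and 11736 of 17402 genes, and the block within them 30 members and 11264 genes. The causes were not tested. Leaving out both replicates 2 was chosen after the data were seen. Under the block in all 12 libraries the other members called stayed called. Against strips that block gave 17 members in M scaffold, 21 in M plate and 22 in P plate, and 8956, 9518 and 10955 of 17700 genes. Members gained included Ifit1 in each culture group, Irf7 in M scaffold and P plate, Ifit3 in P plate and Usp18 in M plate. DESeq2 gave 17, 23 and 22 members against strips in the same order, and 9928, 10325 and 11591 genes.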
